A study of Mus musculus with 6 samples.

Results

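Milk protein genes are among the tissue-restricted genes that medullary thymic epithelial cells (mTECs) transcribe. The 7 genes described here are the 5 casein genes Csn1s1, Csn1s2a, Csn1s2b, Csn2 and Csn3, together with Lalba (alpha-lactalbumin) and Wap (whey acidic protein). They were found by symbol in the annotation of the processed array matrix, which gave 10 of its 41174 probes. Csn1s2b, Csn3 and Wap had 2 probes each, and the other genes had 1. The cells came from 30-day-old mice, wild-type (WT) for Mbd1 or lacking it (KO), and were sorted as viable (DAPI-) cells that were CD45-, CD11c-, Ly51-, EPCAM+ and class II+. The Mbd1 protein recognises methylated CpG sites in DNA and acts as a transcriptional repressor. The RNA was amplified and hybridised to 1-colour Agilent arrays, and of 4 replicates made per genotype 1 was removed by the submitters after quality control. This left 3 WT and 3 KO columns in the matrix. Strain, sex and whether a replicate was 1 mouse or a pool are not given in the sources used here.

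Caseins are the main proteins of milk and are carried in it as micelles. The mouse casein genes lie in 1 cluster on chromosome 5, and in the lactating mammary gland they are switched on by prolactin through Stat5, together with glucocorticoids. mTECs transcribe many genes of peripheral organs, part of them under the control of Aire or Fezf2, and display the products to developing T cells, which is known to contribute to self-tolerance.

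The start regions of Csn1s1, Csn2 and Csn1s2a, which lie next to each other in the cluster, are shown because Mbd1 binds methylated CG and because Stat5 binds the form TTCNNNGAA. Each line gives the 250 bases before the RefSeq start (build GRCm38.p6), 5′ to 3′ on the gene's strand. Capitals mark each TTCNNNGAA match, a palindrome that reads alike on both strands, and each CG pair. The stretches are chr5:87665958-87666207 on the plus strand for Csn1s1, chr5:87699426-87699675 on the minus strand for Csn2 and chr5:87774200-87774449 on the plus strand for Csn1s2a.
Csn1s1: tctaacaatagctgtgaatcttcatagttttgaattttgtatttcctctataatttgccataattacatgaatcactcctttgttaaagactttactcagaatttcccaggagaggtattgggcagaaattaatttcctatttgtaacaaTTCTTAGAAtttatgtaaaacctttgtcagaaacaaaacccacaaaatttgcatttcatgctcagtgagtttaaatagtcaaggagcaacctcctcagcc
Csn2: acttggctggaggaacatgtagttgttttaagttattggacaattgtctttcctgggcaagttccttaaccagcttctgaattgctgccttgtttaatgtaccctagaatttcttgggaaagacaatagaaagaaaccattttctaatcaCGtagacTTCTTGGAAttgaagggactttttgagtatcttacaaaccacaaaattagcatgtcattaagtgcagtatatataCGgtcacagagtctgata
Csn1s2a: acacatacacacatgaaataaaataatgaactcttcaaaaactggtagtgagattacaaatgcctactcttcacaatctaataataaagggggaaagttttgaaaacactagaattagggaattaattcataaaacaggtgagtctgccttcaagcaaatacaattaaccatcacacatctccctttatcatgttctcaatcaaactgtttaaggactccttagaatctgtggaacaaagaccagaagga
Csn1s1 held 1 TTCNNNGAA, beginning 100 bases before the start, and Csn2 held 1, beginning 93 bases before it. Csn1s2a held 0 matches in this window. Over 32851 mouse promoters of the same length, 7.02% held at least 1 match. Csn1s1 and Csn1s2a held 0 CG pairs, as did 7.87% of all promoters, and Csn2 held 2, where 29.0% of promoters held 2 or fewer. The median over all promoters was 6. Lalba on chromosome 15 had 2 CG pairs and Wap on chromosome 11 had 1, and neither held TTCNNNGAA. Sequences of the start regions were used for 5 of the 7 genes, Csn1s2b and Csn3 being the others. The arrays measured RNA and no methylation, so these counts describe the sequence only.

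The targeted gene was measured first. In the matrix the brightest Mbd1 probe read 8.83, 8.60 and 8.999 on the log2 scale in the WT columns and 5.64, 5.61 and 5.60 in the KO columns. It fell by 3.19 (SE 0.155, limma, Benjamini-Hochberg adjusted p = 0.000594 over all probes). A second Mbd1 probe, A_52_P158923, fell by 2.96 (adjusted p = 0.000916 by limma). The third, A_52_P131423, designed to a cDNA clone record, differed by -0.98 and did not pass (adjusted p = 0.164 by limma), with all KO columns below all WT columns. Blocked by slide, in the 5 columns whose slide is known, the first probe differed by -3.22 (limma, adjusted p = 0.209). The deposited scanner files carry genotype titles that do not follow the matrix columns. Values of 5 of the 6 columns ranked 39036 probes exactly as the median spot signals of 1 scanner file did (Spearman's rho = 1.00). None of these 5 files had the same title as its column, and 4 had the other genotype in the title. The Mbd1 probe had processed intensities of 20.9, 305 and 15.6 on the arrays titled WT and 356, 17.2 and 682 on the arrays titled KO, so the titles went against the targeted gene. Column KO_1 matched no scanner file and the array titled KO_2 matched no column, which makes 7 distinct libraries in all. The results use the column names, and the values under the array titles are given after them. On each array 73.5 to 81.3% of probes were well above background. All 15 mTEC markers examined were above background on at least 3 of 6 arrays, Aire at 10.77 ± 0.22 (SD, n = 3) in WT and 11.07 ± 0.50 in KO columns and Fezf2 at 13.18 ± 0.13 and 13.16 ± 0.59. The labels do not say that replicates were separate mice beyond calling them biological, so each p-value measures the spread between these columns.

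None of the 10 milk protein probes passed the test between KO and WT columns. The lowest adjusted p among them was 0.837 (limma), and 4 of 10 had an unadjusted p under 0.05. Over all probes 26 passed, which is 0.0631%, with 23 higher (0.0559%) and 3 lower (0.00729%) in KO columns, and 3.83% had an unadjusted p under 0.05. The KO and WT columns did not overlap for 4 of the 10 probes, 2 with KO below WT and 2 with KO above. Among all probes 8.04% did not overlap, 4.02% in each direction. The difference was negative for 7 of the 10 milk protein probes and for 51.3% of all probes. The median difference was -0.13 over the 10 probes and -0.01 over all probes. All values are log2 values of the matrix, differences are KO minus WT with limma's moderated standard error, and adjusted p-values are Benjamini-Hochberg over 41174 probes. In sorted cells measured in bulk, fewer transcribing cells and less RNA per cell cannot be told apart. Brightness differs between probes for reasons of design, so the genes are not ranked by level.

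**Figure D1:**
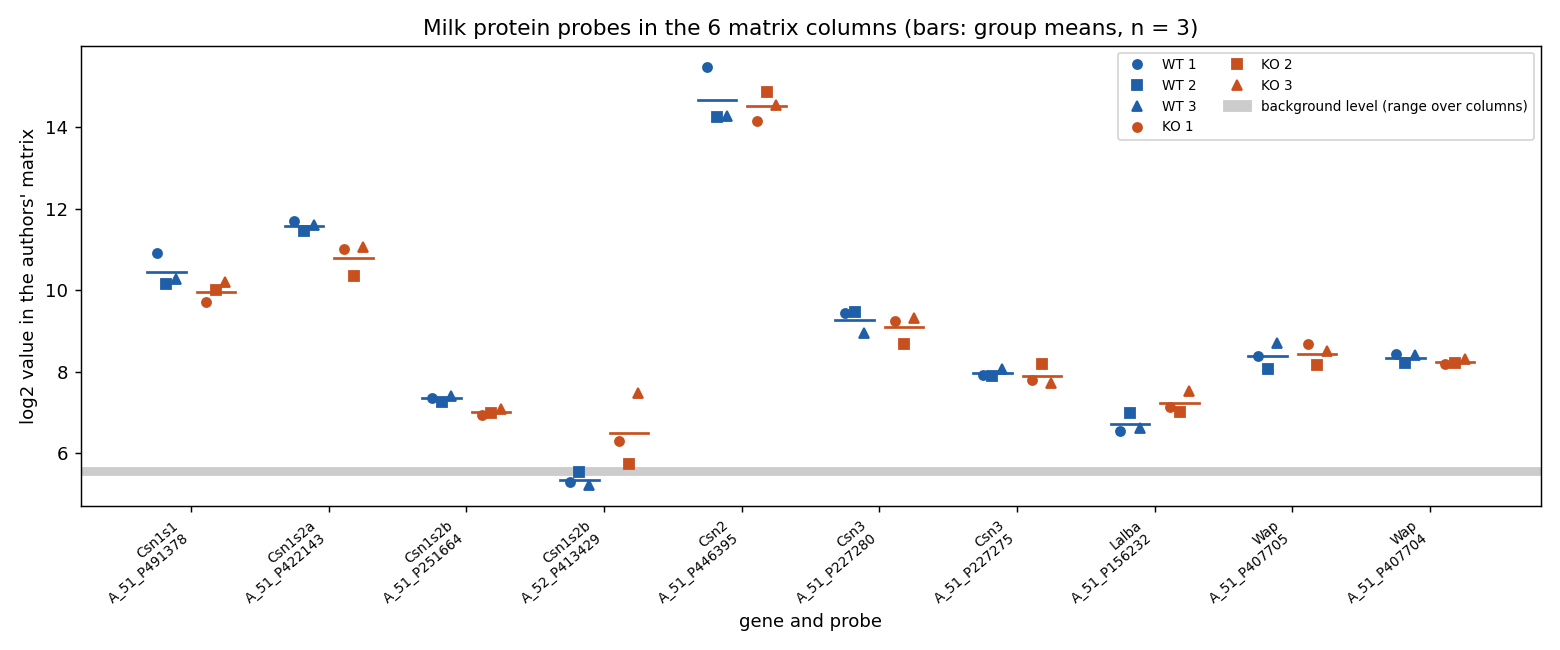
Log2 value of each of the 10 milk protein probes (x axis, gene and probe) in the 3 WT columns (blue) and 3 KO columns (orange) of the authors' matrix, with bars at the group means and a grey band at the background level of the columns. The KO columns lie below all WT columns for Csn1s2a and 1 Csn1s2b probe, and above them for Lalba and the other Csn1s2b probe. For the remaining probes the ranges of the KO and WT columns overlap.

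The calcium-sensitive caseins make up the bulk of the micelle. Csn1s2a, an alpha-s2-type casein, read 11.71, 11.45 and 11.59 in the WT columns and 11.00, 10.33 and 11.06 in the KO columns. Every KO column was below every WT column, by 0.39 at the closest. The difference of -0.78 (SE 0.22, 95% interval -1.28 to -0.28), which is 1.72-fold higher in WT, had an unadjusted p of 0.00669 and an adjusted p of 0.837 by limma. Leaving out 1 column at a time gave -0.91 to -0.55. Its start region is the one of the 3 shown that holds neither TTCNNNGAA nor CG. A link between that sequence and the difference was not tested.

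Csn1s1, the alpha-s1 casein, read 10.92, 10.16 and 10.27 in the WT columns and 9.70, 10.01 and 10.19 in the KO columns. The groups overlapped only through KO_3, which was 0.03 above WT_2. The difference was -0.49 (SE 0.23, 95% interval -1.02 to 0.05, adjusted p = 1.00 by limma). WT_1 was the highest column, and without it the difference was -0.25.

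Csn2, the beta casein, read 15.48, 14.24 and 14.26 in the WT columns and 14.15, 14.85 and 14.53 in the KO columns. WT_1 was the highest of the 6, and the remaining WT columns lay between KO_1 and KO_3. The difference was -0.15 (SE 0.35, 95% interval -0.95 to 0.65, adjusted p = 1.00 by limma), an interval that in linear terms runs from 0.519 to 1.56 times the WT level. Its sign turned when 1 column was left out, to 0.26 without WT_1 and to 0.03 without KO_1. The within-group SD of Csn2 was 0.56, larger than that of 96.1% of the 32695 probes above background on at least 3 arrays, whose median SD was 0.26.

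Csn1s2b, the second alpha-s2-type casein, was read by 2 probes that went opposite ways. The RefSeq-based probe A_51_P251664 read 7.36, 7.26 and 7.41 in the WT columns and 6.93, 6.996 and 7.09 in the KO columns. All KO columns were below all WT columns, at a difference of -0.34 (SE 0.14, 95% interval -0.66 to -0.02, unadjusted p = 0.0418, adjusted p = 1.00 by limma). This probe had a small spread, with a within-group SD of 0.08. Probe A_52_P413429, designed to a cDNA clone record, read 5.29, 5.54 and 5.22 in the WT columns and 6.29, 5.74 and 7.48 in the KO columns. The KO columns were all higher, but the WT columns were all at or under the background level, which was the 95th percentile of 5187 probes never above background and lay at 5.46 to 5.62 in the 6 columns. With the WT columns set at that level the KO mean was 1.95-fold higher, a mean over widely spread columns. The fit gave 1.15 (SE 0.39, 95% interval 0.26 to 2.05, unadjusted p = 0.0177, adjusted p = 1.00 by limma). The within-group SD was 0.64, larger than that of 98.2% of probes above background on at least 3 arrays. The fitted difference was 0.66 without KO_3, the highest column. The scanner counted this probe as well above background on 3 of 6 arrays, and the other 9 milk protein probes on all 6. Those 3 arrays were the ones matched by rank to columns KO_2 and KO_3 and the array titled KO_2, which matched no column. Column KO_1 had no scanner file to check. Taking the mean of both Csn1s2b probes turned the sign of the gene's difference, to 0.41.

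Csn3, the kappa casein, caps the micelle and keeps it in solution. Probe A_51_P227280 read 9.44, 9.45 and 8.94 in the WT columns and 9.24, 8.69 and 9.33 in the KO columns. Probe A_51_P227275 read 7.92, 7.88 and 8.06 in the WT columns and 7.79, 8.19 and 7.73 in the KO columns. Both overlapped between groups, at differences of -0.19 (SE 0.23, 95% interval -0.71 to 0.33) and -0.05 (SE 0.17, 95% interval -0.44 to 0.34). The 2 probes ran against each other, as KO_2 was the lowest column on the first and the highest on the second. Over the 6 columns their Pearson r was -0.81 (exact permutation p = 0.0514) and Spearman's rho -0.54. Without the 2 columns farthest from the median of the first probe r was 0.75, so its sign depended on which columns were used.

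The whey proteins are encoded outside the casein cluster. Lalba, on chromosome 15, encodes the regulatory subunit of lactose synthase. It read 6.54, 6.996 and 6.62 in the WT columns and 7.13, 7.01 and 7.53 in the KO columns. Every KO column was above every WT column, but KO_2 exceeded WT_2 by only 0.01. The difference was 0.50 (SE 0.20, 95% interval 0.05 to 0.96, unadjusted p = 0.0348, adjusted p = 1.00 by limma). Wap, on chromosome 11, encodes an abundant whey protein of rodent milk. Its probe A_51_P407705 read 8.39, 8.07 and 8.71 in the WT columns and 8.67, 8.17 and 8.50 in the KO columns. Its probe A_51_P407704 read 8.42, 8.22 and 8.40 in the WT columns and 8.18, 8.20 and 8.30 in the KO columns. Both Wap probes overlapped between groups, with differences of 0.05 (SE 0.21, 95% interval -0.43 to 0.54) and -0.12 (SE 0.14, 95% interval -0.45 to 0.21).

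**Figure D2:**
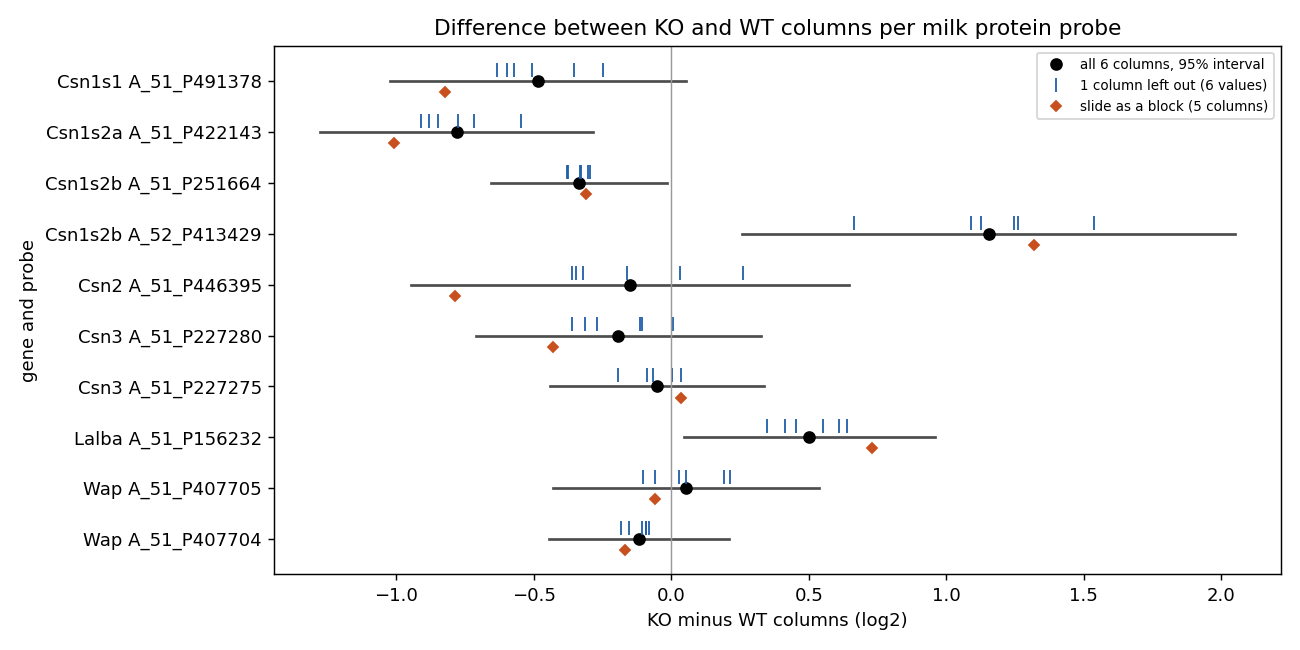
KO minus WT difference (x axis, log2) of each milk protein probe with its 95% interval from limma (black), the 6 values with 1 column left out (blue ticks) and the value blocked by slide in the 5 columns of known slide (orange). The interval of Csn1s2a reaches from -1.28 to -0.28, that of Csn2 spans 0, and the blocked value of Csn2 is -0.79.

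The slide of 5 columns is known through the rank match: WT_1, KO_2 and KO_3 were on slide 1, and WT_2 and WT_3 on slide 2. With the slide as a block, which uses these 5 columns and equals the comparison within slide 1, the difference was -0.82 for Csn1s1, -1.01 for Csn1s2a and -0.79 for Csn2. It was -0.31 and 1.32 for the Csn1s2b probes, -0.43 and 0.03 for the Csn3 probes, 0.73 for Lalba, and -0.06 and -0.17 for the Wap probes. WT_1 was the only WT column on slide 1, so these values rest on the column that was highest for Csn1s1, Csn1s2a and Csn2. For Csn2 the columns on slide 1 (15.48, 14.85 and 14.53) were all above those on slide 2 (14.24 and 14.26). The part of the slide in the spread and the sign turns of Csn2 was not tested. The second Csn3 probe and the first Wap probe turned sign, both close to 0. None of the 10 probes passed, and 0 of all probes did (limma, 2943 with an unadjusted p under 0.05).

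Over the 6 columns 45 pairs of milk protein probes were correlated, and 0 passed after Benjamini-Hochberg adjustment (smallest adjusted p = 0.0625), while 4 had an exact permutation p under 0.05. The smallest belonged to Csn1s1 and Wap probe A_51_P407704, genes on different chromosomes (Pearson r = 0.85, exact permutation p = 0.00139, rho = 1.00, exact p = 0.00278, r = 0.86 without the 2 farthest columns). The highest r belonged to Lalba and Csn1s2b probe A_52_P413429, whose WT columns were at or under the background level. It was 0.93 (Pearson, exact permutation p = 0.00417, rho = 0.94, exact p = 0.0167, adjusted p = 0.0938) and 0.91 without the 2 farthest columns. Csn1s2a ran with the RefSeq-based Csn1s2b probe (Pearson r = 0.84, exact permutation p = 0.0389, rho = 0.89, exact p = 0.0333, r = 0.96 without the 2 farthest columns, adjusted p = 0.462). Csn1s1 and Csn2 had r = 0.78 (exact permutation p = 0.0778, rho = 0.60, exact p = 0.242, adjusted p = 0.500). Without the 2 farthest columns that r was -0.83, so the positive value rests on them. The 2 slides held too few columns to give r within a slide, and part of each value can come from the group difference itself. Among named probes of other genes that were above background on at least 3 arrays, those most like Csn2 over the 6 columns belonged to Itprid1 (r = 0.996, rho = 0.94), Aebp2, a Polycomb accessory factor (r = 0.995, rho = 1.00), and Il7, the lymphocyte growth factor made by thymic epithelium (r = 0.995, rho = 0.90). They were taken as the highest of 29974 probes, of which 184 had r over 0.95 and 217 had r under -0.95. These values describe 6 columns that share their normalisation and libraries, and no p is given for them. Like Csn2, Itprid1, Aebp2 and Il7 were each higher in every slide 1 column than in every slide 2 column. Likeness to Csn2 and a shared slide pattern therefore cannot be told apart.

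Under the array titles the milk protein genes gave other directions. By rank the arrays titled WT were columns KO_2, WT_1 and KO_3, and those titled KO held WT_2, WT_3 and the unmatched array. The comparison by title thus largely swaps the groups, and a turned sign is no separate evidence on a gene. Csn1s2a had processed intensities of 1446, 2337 and 2166 on the arrays titled WT and 2687, 3099 and 4170 on those titled KO. After log2 and scaling to the 75th percentile of each array its difference was 0.54 (SE 0.40), opposite to that in the columns. Csn2 had intensities of 29399, 28819 and 23512 on the arrays titled WT and 17494 and 23788 on 2 of those titled KO, its spot on the array titled KO_2 being left out for an outlier flag. Its scaled difference was -0.63 (SE 0.35, 5 arrays), and the other casein and whey probes gave -0.41 to 0.42. In all, 8 of the 10 probes had opposite signs under titles and columns, and 7 were higher on arrays titled KO. No milk protein probe passed under the titles (limma, lowest adjusted p 0.987, 0 with an unadjusted p under 0.05). Of 40697 probes 0 passed, which is 0%, with 1778 at an unadjusted p under 0.05, and the median difference of all probes was 0.09. Arrays titled WT were all on slide 1 and arrays titled KO all on slide 2, so title and slide cannot be told apart.

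**Figure D3:**
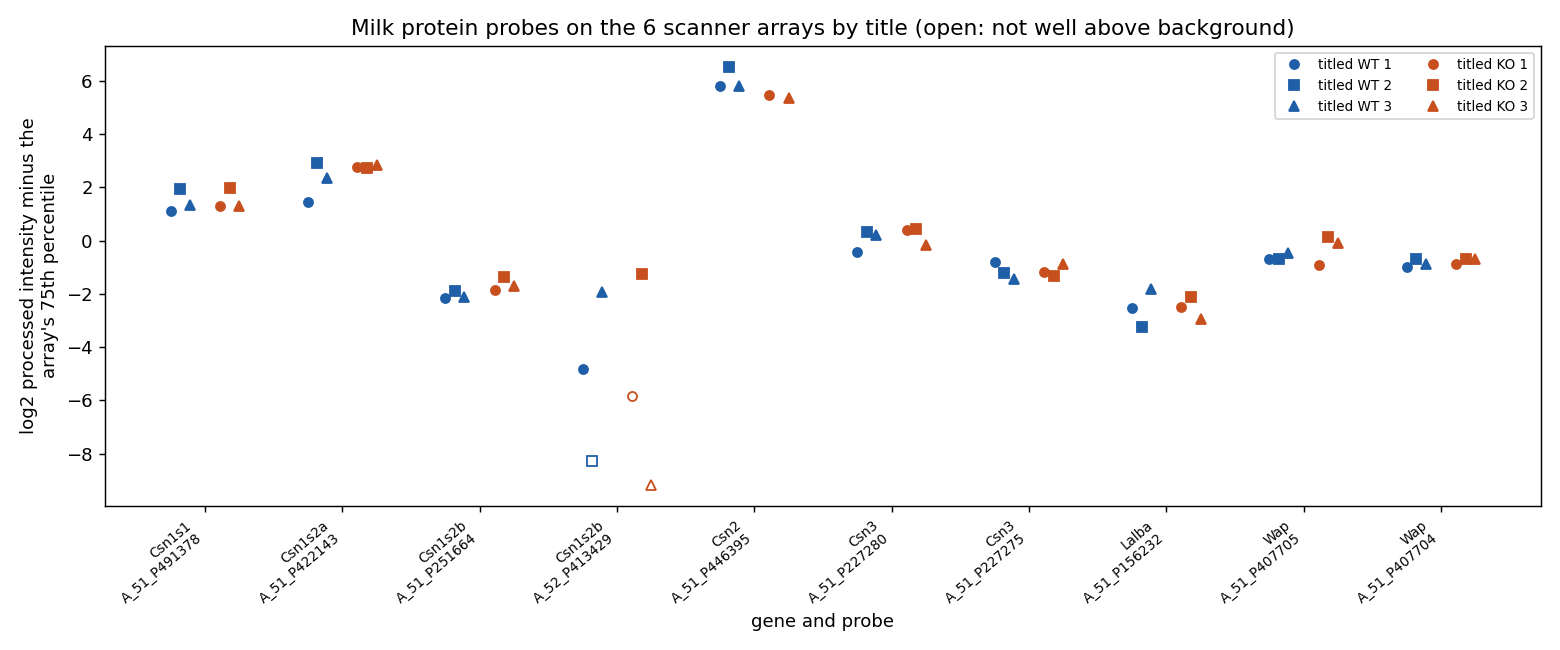
Log2 processed intensity minus the array's 75th percentile (y axis) of each milk protein probe on the 3 arrays titled WT (blue) and the 3 titled KO (orange), with open symbols where a spot was not well above background. Arrays titled WT and KO overlap for most probes, the Csn2 spot of the array titled KO_2 is left out, and Csn1s2b probe A_52_P413429 is open on 3 arrays.

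The other milk genes were read beside the caseins. Of 22 genes for milk proteins and milk secretion 0 rose and 0 fell (limma). An unadjusted limma p under 0.05 was found for 4 of the 22, against 3.83% of all probes. The difference was positive for 12 and negative for 10, at a median of 0.02. The 4 with the smallest p were Mfge8, which coats the milk fat globule (0.53, SE 0.19), Cel, the bile salt-stimulated lipase (-0.56, SE 0.22), Muc15, a membrane mucin (-0.84, SE 0.34), and Cd36, a fatty acid transporter (-0.35, SE 0.15). Their adjusted p-values were all 1.00. Leaving out KO_3 took Cel to -0.31, and leaving out WT_2 took Muc15 to -0.49. For 1 of the 22 genes the KO columns were all above the WT columns, and for 3 they were all below, against 4.02% of all probes in each direction.

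The prolactin pathway and its partners gave no call either. Of 18 genes of lactation signalling and transcription 0 rose and 0 fell (limma, 0 with an unadjusted p under 0.05), with 10 positive and 8 negative at a median of 0.03. Prlr, the prolactin receptor, was at 7.91 ± 0.12 (SD, n = 3) in WT and 7.47 ± 0.50 in KO columns, a difference of -0.44 (SE 0.25). Without KO_3 it was -0.15. Esr1, the estrogen receptor, differed by 0.27 (SE 0.19), Tnfsf11, the ligand of RANK, by -0.29 (SE 0.21) and Erbb4, a receptor for neuregulins, by -0.19 (SE 0.15). Each of these also moved by more than 1.5 times with 1 column left out, Esr1 to 0.10 without KO_3 and Erbb4 to -0.12 without WT_1. Tnfsf11 moved to -0.13 without WT_1, to -0.17 without KO_1 and to -0.46 without WT_3.

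The genes around the caseins on chromosome 5 were also read. In RefSeq order the cluster runs Csn1s1, Csn2, Csn1s2a, Csn1s2b, Prr27, Odam and, after 1 further gene, Csn3, with Sult1d1 and Sult1e1 before it and Cabs1 and Smr3a after it. Of 15 neighbours 0 rose and 0 fell (limma, 1 with an unadjusted p under 0.05), with 7 positive and 8 negative at a median of -0.02. Jchain, which joins polymeric immunoglobulins, was at 6.59 ± 0.36 (SD, n = 3) in WT and 8.34 ± 1.13 in KO columns (1.74, SE 0.50, adjusted p = 0.870 by limma). It was highest in KO_2, without which the difference was 1.11. Odam, secreted by enamel-forming cells, differed by -0.39 (SE 0.17), Smr3a, a salivary protein gene, by -0.51 (SE 0.23) and Ambn, the enamel protein ameloblastin, by 0.46 (SE 0.21). Of 8 B cell markers 6 were positive, at a median of 0.22, and their column medians were 7.14 to 7.93 in WT and 7.63 to 7.96 in KO columns. Among them Ighm, the immunoglobulin mu heavy chain, named after its values were seen, read 8.87, 9.48 and 9.82 in the WT columns and 11.53, 13.23 and 10.87 in the KO columns. All KO columns were above all WT columns, with KO_2 the highest as for Jchain, at a difference of 2.49 (SE 0.54, unadjusted p = 0.00176, adjusted p = 0.456 by limma). The other 7 B cell markers overlapped between groups. The part of B-lineage cells in the Jchain difference was not tested.

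**Figure D4:**
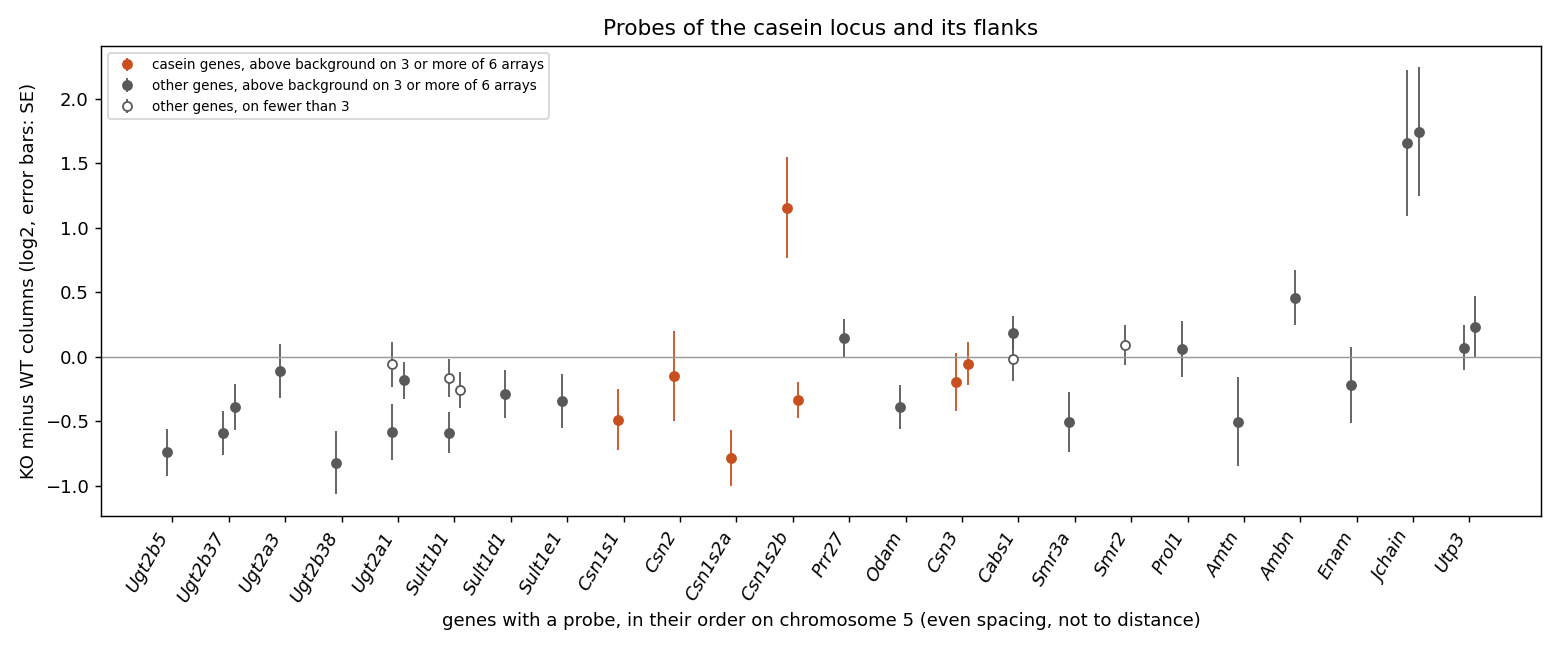
KO minus WT difference (y axis, log2, error bars SE) of every probe of the genes around the casein cluster, in RefSeq order on chromosome 5 with even spacing (x axis). Casein probes are orange, and open symbols mark probes above background on fewer than 3 of 6 arrays. Most probes from Ugt2b5 to Csn3 lie below 0, and the 2 Jchain probes are the highest of the plot.

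Markers of other thymic cells, which the sort was meant to leave out, were each above background on at least 3 of 6 arrays. All 10 thymocyte markers had a positive difference, 0 passed (limma, 6 with an unadjusted p under 0.05) and 6 had all KO columns above all WT columns, against 3.83% and 4.02% of all probes. Their column medians were 7.96 to 8.41 in WT and 8.69 to 8.88 in KO columns, at a median difference of 0.58. Positive values were also found for 7 of 8 markers of dendritic cells and macrophages (median 0.26), 6 of 7 markers of cortical thymic epithelium (median 0.24) and 6 of 9 markers of fibroblasts and endothelium (median 0.11). The 15 mTEC markers had 7 positive and 8 negative values, at a median of -0.02. The part of these other cells in the casein values was not tested.

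**Figure D5:**
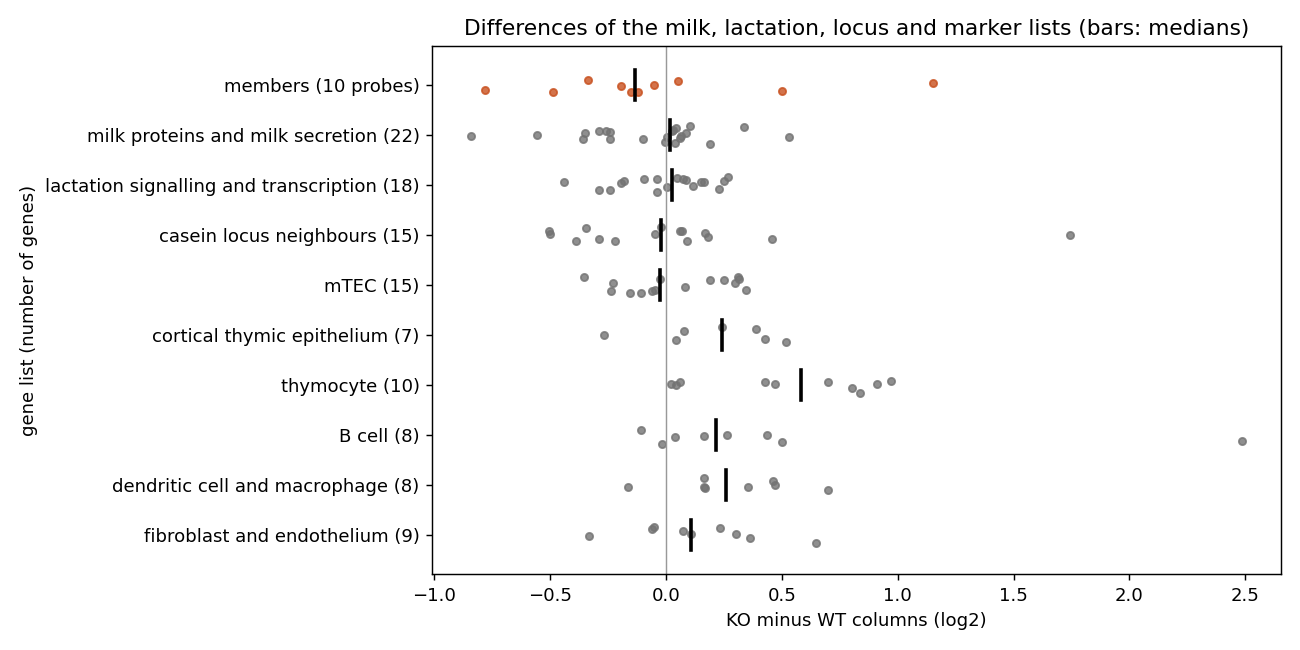
KO minus WT difference (x axis, log2) of each gene in the milk, lactation, locus and cell type lists, 1 point per gene at its brightest probe and 1 per probe for the milk protein genes (orange), with black bars at the medians. The medians of the milk and lactation lists lie at 0.02 and 0.03, that of the 10 milk protein probes at -0.13 and that of the thymocyte markers at 0.58.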

How the data were processed

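The authors deposited a matrix of log2 values for 6 columns together with their own log2 difference, its linear fold and p-values and adjusted p-values; the log-odds score that the authors deposited beside them was not used. The method and genome build of the matrix are not given in the sources used here; all columns had medians of 7.13 to 7.14 and the same maximum of 18.60. Scanner intensities, with background and outlier flags, were made with Agilent Feature Extraction 10.7.3.1 per the file headers (10.6 per the submitters' processing notes). The 10 milk protein probes were matched by either symbol column of the matrix. All 41174 probes were fitted together with limma 3.58.1 in R 4.3.3 (lmFit and eBayes, no filter, Benjamini-Hochberg adjustment, threshold 0.05), a script tested on simulated data. The differences equalled those of the authors' deposited table to within 4.3e-08. Under the array titles, processed intensities (floor 1) were put on the log2 scale minus the array's 75th percentile. Control spots and outlier-flagged spots were left out, and replicate spots averaged. No spot was saturated. The number of arrays limits the precision. Of the probes, 33534 were named by Entrez gene number, 38 by accession, 2073 kept the file's symbol and 5529 had none. Named genes were all 7 milk protein genes, Mbd1, Aire, Fezf2, the 4 genes of smallest p in each of the milk, lactation and locus lists (brightest probe per gene), and the 3 most like Csn2. Ighm, Ugt2b5, Ugt2b38 and Sult1b1 were named in addition, after their values were seen. The genes, lists and tests were chosen with earlier results of these data known. Promoter sequences come from RefSeq. Alternatives covered filters on dim probes, probe averaging, moderation, a floor, the slide, the replicate number, each column left out, and the scanner files by title. A normexp alternative with offset 50 used the median spot signal, since a mean signal was not used here.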

Additional observations from a re-analysis of the deposited data

How the results depend on the processing

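No milk protein probe and no gene of a list passed under any alternative run (limma). Of all probes 26 passed; 57 did among probes above background on at least 3 arrays, 48 on all 6, 58 with trend and robust moderation, 16 with values floored at background, 0 with the slide as a block, within slide 1, under the titles or under the titles with normexp, and 3 to 38 with 1 column left out (11 without WT_1, 3 without WT_2, 3 without WT_3). Column numbers did not pair the samples: deviations of same-numbered columns correlated at -0.29, -0.18 and -0.33, no column correlated best with its own number, and the replicate block left 2 calls of all probes. Under the titles and, second, under the titles with normexp, differences turned sign to 0.075 and 0.24 for Csn1s1, 0.54 and 0.70 for Csn1s2a, 0.42 and 0.26 for Csn1s2b A_51_P251664, 0.20 and 0.25 for Csn3 A_51_P227280, -0.0022 and -0.050 for Lalba, 0.089 and 0.074 for Wap A_51_P407704, -0.52 and -0.42 for Mfge8, 0.30 and 0.24 for Cel, 0.79 and 0.56 for Muc15, 0.40 and 0.20 for Cd36, 0.39 and 0.24 for Prlr, -0.25 and -0.11 for Esr1, 0.12 and 0.15 for Erbb4, -1.01 and -0.79 for Jchain, 0.13 and 0.043 for Odam, -0.52 and -0.29 for Ambn, 1.59 and 0.89 for Mbd1, 2.10 and 0.80 for its probe A_52_P158923, 1.06 and 0.35 for its probe A_52_P131423, -0.87 and -0.78 for Ighm, 0.15 and 0.055 for Ugt2b5 and 0.14 and 0.10 for Ugt2b38. The titles largely swap the genotypes of the columns, so these turned signs, that of Mbd1 included, are no separate evidence on the genes. Titles alone turned Csn1s2b A_52_P413429 (-0.41) and Csn3 A_51_P227275 (0.016), and normexp turned Fezf2 (0.18). Averaging the probes of a gene turned Csn1s2b (0.41) and Wap (-0.032), and the slide, as a block or within slide 1, turned Csn3 A_51_P227275 (0.034), Wap A_51_P407705 (-0.059) and Fezf2 (0.17). With 1 column left out, ranges that crossed 0 were -0.36 to 0.26 for Csn2, -0.36 to 0.0070 for Csn3 A_51_P227280, -0.19 to 0.034 for Csn3 A_51_P227275, -0.10 to 0.21 for Wap A_51_P407705 and -0.36 to 0.20 for Fezf2. Under the titles, with 1 array left out, they were -0.16 to 0.31 for Csn1s1, -2.49 to 1.47 for Csn1s2b A_52_P413429, -0.032 to 0.40 and -0.13 to 0.19 for the Csn3 probes and -0.35 to 0.35 for Lalba, and normexp changed the sign of Csn1s2b A_52_P413429 (0.14) and Csn3 A_51_P227275 (-0.011) there. Mbd1 lost its call with the slide as a block (-3.22, adjusted p = 0.209) and within slide 1 (-3.22, adjusted p = 1.00), as did its probe A_52_P158923, which also lost it with the replicate block (adjusted p = 0.0546); the first probe kept it with each column left out (adjusted p 0.00164 to 0.0161). Both slide settings compare WT_1, the only WT column on slide 1, with KO_2 and KO_3. Over all 6 columns the difference of the first Mbd1 probe was -3.19. The cause of the lost calls was not tested. Signal limits the Csn1s2b probe A_52_P413429, whose WT columns were at background, and 3 columns a group limit every interval.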

Other observations

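The casein cluster sits in a longer stretch of chromosome 5 that was looked at after its values were seen. From Ugt2b5 to Csn3 the matrix held 22 probes of 15 genes. Of these 20 had a negative KO minus WT difference, at a median of -0.31, against -0.01 over all probes, and 8 (36.4%) had all KO columns below all WT columns, against 4.02% of all probes. Those 8 include Sult1b1 probe A_52_P1085448, which was above background on 0 arrays. Of the 19 probes in the stretch above background on at least 3 arrays, 17 were negative. Past Csn3 most probes of the genes shown were positive, so the end of the stretch follows the values. None of the 22 passed (limma). An unadjusted limma p under 0.05 was found for 8 of the 22, against 3.83% of all probes. These 8 are not the same set as the 8 above. They include Csn1s2b probe A_52_P413429 (1.15), the 1 probe of the stretch with all KO columns above all WT columns. The 15 probes that were not of casein genes had 14 negative values, at a median of -0.34. The 2 of them farthest below 0 were Ugt2b38 (-0.82, SE 0.25) and Ugt2b5 (-0.74, SE 0.18), members of a glucuronosyltransferase family whose near-identical copies an array probe may not separate. Leaving out 1 column at a time left 17 to 20 of the 22 negative, the slide block 19, and the array titles, which largely swap the genotypes, 7. Neighbouring genes share the same 6 columns and are not replicates, and no cause was tested.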
